A study of Mus musculus with 20 samples.

Results

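C1qtnf1, C1qtnf2, C1qtnf3, C1qtnf5, C1qtnf6 and C1qtnf7 encode secreted proteins of the C1q/TNF-related (CTRP) family, and their levels were followed in sorted mouse dermal fibroblasts across age and diet. The 6 genes were chosen by their levels in the 4 groups of these same arrays, so the differences between groups are given for them as a description and without p-values. A gene was taken from probe sets annotated to it alone, and where it had several, from the set that was brightest on average across the 20 arrays. By this rule 3 of the 6 genes were measured, C1qtnf1 on 2 probe sets and C1qtnf3 and C1qtnf7 on 1 each, among 17097 genes with a probe set of their own. C1qtnf5 was read only by a probe set that also names Mfrp, a gene to which RefSeq gives the same start and end on chromosome 9, and C1qtnf2 and C1qtnf6 were not analysed here because no probe set in the annotation used names them.

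CTRP proteins are paralogs of adiponectin. Each has a signal peptide, a collagen-like tail and a globular C1q domain at the C-terminal end, and the chains assemble into trimers and larger forms before they are secreted. They act as circulating or local factors in metabolism, inflammation and vascular and skeletal biology, and several are made by stromal cells rather than by fat cells.

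The study hybridised RNA from 5 female mice per group to an Affymetrix expression array, 20 arrays in all, and the labels call the 5 biological replicates. Old CR-ND mice were placed on 30% caloric restriction at 9 months of age, kept on it for 7 months, and returned to normal food for 2 months. Old CR mice started at the same age with 2 months of normal food before 7 months of 30% restriction, Old ND mice had free access to normal food for 9 months, and all old mice were killed at 18 months. Young ND mice are described as 4 weeks old and fed the normal diet for 4 weeks, so that their age when collected is unclear. All groups shared the isolation: the subdermis was removed, the skin was digested with collagenase, and cells positive for Pdgfra and CD34 and negative for CD45, CD117, CD24, CD31 and EpCam were sorted. RNA of 10000 cells was amplified for 20 cycles before labelling.

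All values are log2 array levels as the authors deposited them, so a difference of 1 is a 2-fold difference. A level also depends on how well a probe set binds its transcript, and levels of different genes are not ranked against each other. The array titles carry bracketed numbers in 2 separate ranges, with 13 arrays in the first and 7 in the second. Old CR had 4 arrays in the first range and 1 in the second, and every other group had 3 and 2. What the ranges stand for was not given, and results are shown by range where they differ. The markers of the sort were compared between groups, since a level alone does not show presence. Pdgfra averaged 6.08 in Old CR-ND, 5.90 in Old CR, 6.20 in Old ND and 5.71 in Young ND, and none of its differences passed. Cd34, the other marker sorted for, averaged 11.19 in Old CR-ND, 11.23 in Old CR, 11.01 in Old ND and 11.30 in Young ND. Its difference in Old ND against Young ND was -0.30 ± 0.09 (limma, adjusted p = 0.0303), and it did not pass in the other comparisons. Of the 5 markers sorted against, Cd24a fell to 5.43 in Old CR-ND, 4.83 in Old CR and 5.56 in Old ND, against 6.73 in Young ND, and the other 4 (Ptprc, Kit, Pecam1 and Epcam) did not pass in any comparison. Transcripts of 4 keratinocyte markers, Krt5, Krt14, Krt1 and Krt10, were also read. Their mean level per array spanned 7.09 to 8.50 in Old CR-ND, 6.93 to 7.74 in Old CR, 6.42 to 8.99 in Old ND and 6.56 to 8.04 in Young ND. In a bulk sample, fewer cells of a type and less RNA per cell cannot be told apart.

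C1qtnf3 encodes CTRP3, also known as cartducin and described in mouse cartilage growth and in the control of liver glucose output. It had the widest range of the 3 genes, 3.69 log2 units over the 20 arrays, and its SD of 0.99 exceeded that of 99.7% of all genes. In Old CR-ND mice the levels of C1qtnf3 were 8.01, 7.36, 7.45, 8.37 and 7.71. In Old CR mice they were 8.47, 8.35, 8.48, 9.19 and 8.55. The Old CR arrays formed a tight and high group. In Old ND mice C1qtnf3 read 5.50, 6.26, 5.84, 7.14 and 6.95. In Young ND mice it read 8.31, 7.49, 8.53, 6.72 and 7.05. The 3 Old ND arrays of the first number range were the lowest of all 20, the other 2 lay among the Young ND arrays, and every Old CR-ND and every Old CR array stood above every Old ND array, while the 5 Young ND arrays spread between 6.72 and 8.53.

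The means of C1qtnf3 were 7.78 ± 0.42 in Old CR-ND, 8.61 ± 0.33 in Old CR, 6.34 ± 0.70 in Old ND and 7.62 ± 0.78 in Young ND (SD, n = 5 each). Old CR was thus highest, Old CR-ND and Young ND came next, and Old ND was lowest. Old CR-ND and Young ND, neighbours in this order, differed by 0.16 ± 0.33 (SE), well within their spread. That difference was -0.50 within the first number range and 1.15 within the second, so the value over all arrays combines opposite signs. Old CR-ND against Old CR was -0.83 ± 0.33, and the arrays of these groups overlapped at 8.37 and 8.35.

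**Figure D1:**
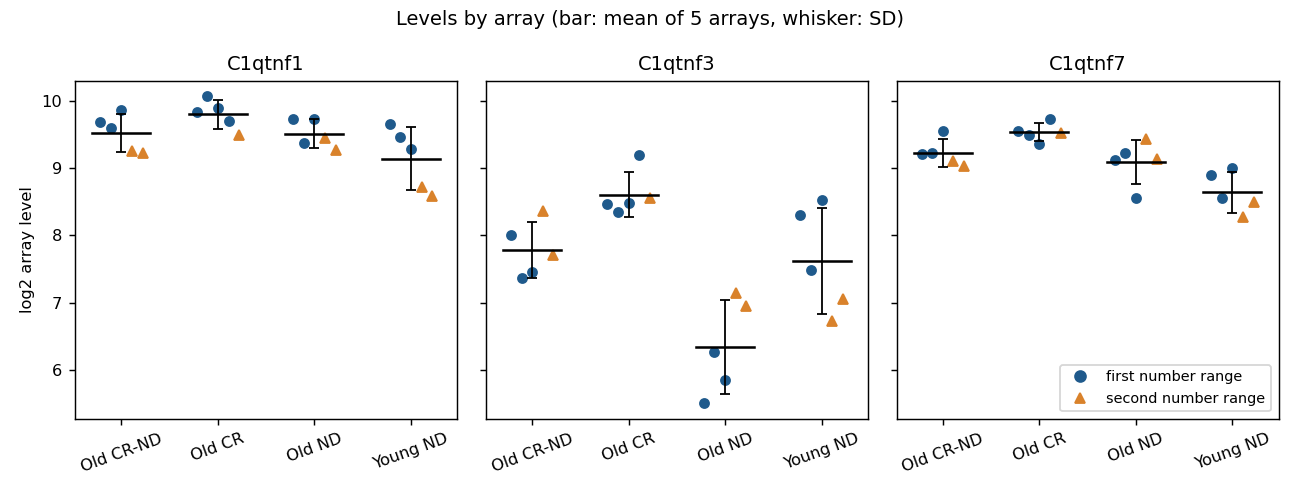
Log2 array level (vertical axis) of C1qtnf1, C1qtnf3 and C1qtnf7 in Old CR-ND, Old CR, Old ND and Young ND mice, 5 arrays per group; bars are means, whiskers SDs, and marker shapes the 2 number ranges in the titles. C1qtnf3 in Old CR lies at 8.35 or above on every array and in Old ND at 7.14 or below.

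The genomic start of C1qtnf3, the gene with the widest differences, and of C1qtnf7, the other measured gene with a promoter entry, is shown for reference (250 bases before to 50 bases after the annotated start, plus strand, RefSeq on GRCm38.p6). Capitals mark the motif matches described after them.
C1qtnf3, chr15:10952082-10952381: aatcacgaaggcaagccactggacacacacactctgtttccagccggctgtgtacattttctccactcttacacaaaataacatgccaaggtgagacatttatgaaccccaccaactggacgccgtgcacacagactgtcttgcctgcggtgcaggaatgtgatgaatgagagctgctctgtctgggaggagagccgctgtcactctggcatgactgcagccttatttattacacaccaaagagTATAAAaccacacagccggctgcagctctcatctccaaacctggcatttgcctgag
C1qtnf7, chr5:43515319-43515618: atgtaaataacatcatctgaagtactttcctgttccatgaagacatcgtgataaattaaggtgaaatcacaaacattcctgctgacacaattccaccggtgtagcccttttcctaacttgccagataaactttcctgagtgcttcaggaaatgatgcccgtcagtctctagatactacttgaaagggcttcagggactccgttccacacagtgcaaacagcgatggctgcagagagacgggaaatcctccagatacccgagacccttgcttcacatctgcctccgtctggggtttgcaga
Both strands were searched for 11 short motifs, and overlapping matches were allowed. The searched letters, with the share of 32851 promoter windows of the same length that hold them, were TATAAA (13.6%, the TATA box), GGGCGG (35.7%, the GC box), CCAAT (37.4%), CACGTG (E-box, 7.15%) and CAGCTG (16.3%). The others were GTAAACA (forkhead, 3.65%), TGACGTCA (cAMP response element, 1.79%), TGAGTCA (AP-1, 5.20%), TCACNCCAC (sterol element, 1.24%), a glucocorticoid receptor element (0.00913%) and a PPAR direct repeat (0.0396%). The C1qtnf3 window held only TATAAA, once, beginning 6 bases before the annotated start, and the C1qtnf7 window held none of the 11. GC content was 50.7% with 7 CpG sites for C1qtnf3 and 46.7% with 8 for C1qtnf7, against medians of 52.7% and 7 over all windows.

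Restricted against unrestricted old mice asks what long caloric restriction late in life does to these genes. C1qtnf3 rose to a mean of 8.61 in Old CR, against 6.34 in Old ND, a difference of 2.27 ± 0.33 or 4.82-fold. In limma over all genes, C1qtnf3 was the 1 measured gene of the 3 past an adjusted p of 0.05, where 2.39% of all 17097 genes passed, and nothing is read from that count because the choice of genes used this contrast. C1qtnf7, a secreted CTRP with a less studied role, differed by 0.44 ± 0.15, and C1qtnf1, which encodes the circulating protein CTRP1, by 0.29 ± 0.18. Neither passed, and their ranges overlapped. The C1qtnf3 difference was 2.76 within the first number range and 1.51 within the second, where each group had 1 or 2 arrays and it did not pass. It was 2.26 with the keratinocyte marker mean as a covariate, and between 2.06 and 2.47 with any single array left out. Of 4 chondrocyte markers, 1 passed in the same comparison, Sox9, a cartilage transcription factor. Sox9 fell by 0.92 ± 0.23 in Old CR against Old ND (limma, adjusted p = 0.0349), opposite in sign to C1qtnf3. The mean of the 4 markers per array spanned 5.06 to 5.30 in Old CR and 5.23 to 5.62 in Old ND. The other 3 did not pass: Acan averaged 5.49 in Old CR and 5.52 in Old ND, Col2a1 differed by 0.07 and Matn3 by 0.00, and the part of such cells in the result was not tested.

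The return to a normal diet asks whether restriction leaves a trace. C1qtnf3 averaged 7.78 in Old CR-ND and 6.34 in Old ND, a difference of 1.44 ± 0.33 (2.72-fold). Every Old CR-ND array was above every Old ND array, yet it did not pass the threshold in a comparison where 1 gene of 17097 did (0.00585%), the long non-coding RNA Rian, named here after its value was seen (0.96, limma, adjusted p = 0.00736). The 0 of 3 measured genes past the threshold there became 1 of 3, C1qtnf3, within the first number range, where its difference was 1.74, and it was 0.99 within the second. C1qtnf7 differed by 0.13 ± 0.15 and C1qtnf1 by 0.01 ± 0.18. Against Old CR, all 3 genes were lower in Old CR-ND: C1qtnf3 by the value given above, C1qtnf7 at -0.31 ± 0.15 and C1qtnf1 at -0.27 ± 0.18. None of the 3 passed, with 0.333% of all genes past the threshold. Both comparisons made with Old CR-ND share mice with Old CR against Old ND, so the 3 sets of differences are not independent.

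**Figure D2:**
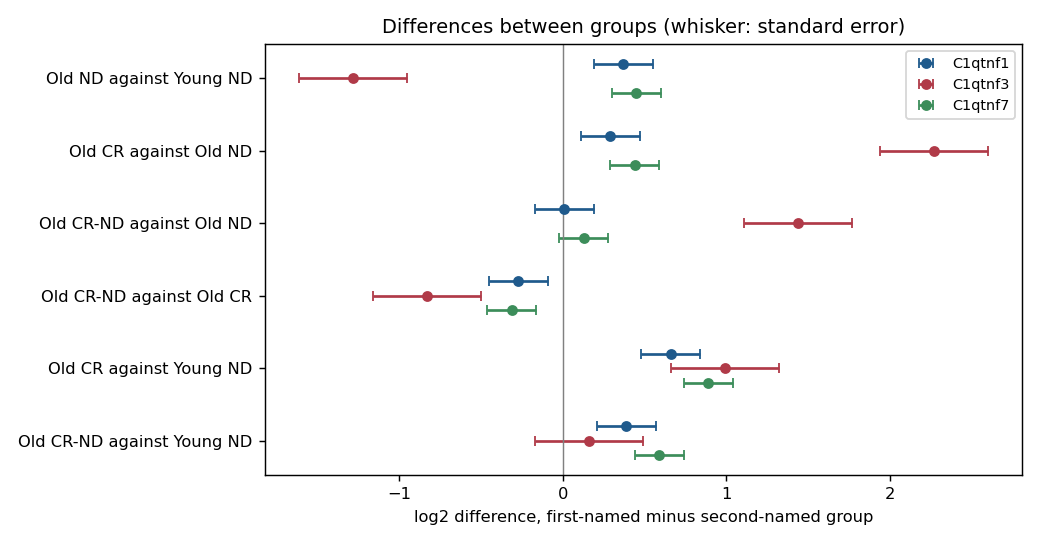
Log2 difference (horizontal axis) of C1qtnf1, C1qtnf3 and C1qtnf7 in 6 comparisons of 5 against 5 arrays, the first-named group minus the second-named; whiskers are standard errors of the limma fit. C1qtnf3 spans -1.28 in Old ND against Young ND to 2.27 in Old CR against Old ND, while C1qtnf1 and C1qtnf7 stay between -0.31 and 0.89.

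Age on the normal diet was compared in Old ND against Young ND. C1qtnf3 fell by 1.28 ± 0.33 on the log2 scale (means 6.34 and 7.62), although Old ND arrays at 7.14 and 6.95 overlapped Young ND arrays at 6.72 and 7.05. It was the 1 gene of 3 past the threshold, beside 10.9% of all genes, and it did not pass when only these 2 groups were fitted. C1qtnf7 differed by 0.45 ± 0.15 and C1qtnf1 by 0.37 ± 0.18, both higher in Old ND and neither past the threshold. Sox9 rose by 0.91 ± 0.23 in the same comparison (limma, adjusted p = 0.0115), again with the opposite sign to C1qtnf3. The other chondrocyte markers did not pass, with Acan at 0.12, Col2a1 at -0.09 and Matn3 at -0.05. The mean of the chondrocyte list per array spanned 5.23 to 5.62 in Old ND and 5.11 to 5.24 in Young ND.

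The C1qtnf3 age difference was uneven between the number ranges. In the first range its mean was 5.87 for Old ND mice and 8.11 for Young ND mice, a difference of -2.24. In the second range the means were 7.04 for Old ND mice and 6.88 for Young ND mice, a difference of 0.16. The difference between the ranges was 2.40 ± 0.44, and it missed the threshold in limma over all genes. The 2 genes that passed that test (0.0117%) were Fndc1 and Glt8d2, named here after their values were seen. The C1qtnf3 value was 1 of 18 such differences computed for the 3 genes over the 6 comparisons, and it is given as a description. For C1qtnf7 the age difference was 0.15 in the first range and 0.91 in the second, and for C1qtnf1 it was 0.15 and 0.71. Neither gene passed the test between the ranges.

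**Figure D3:**
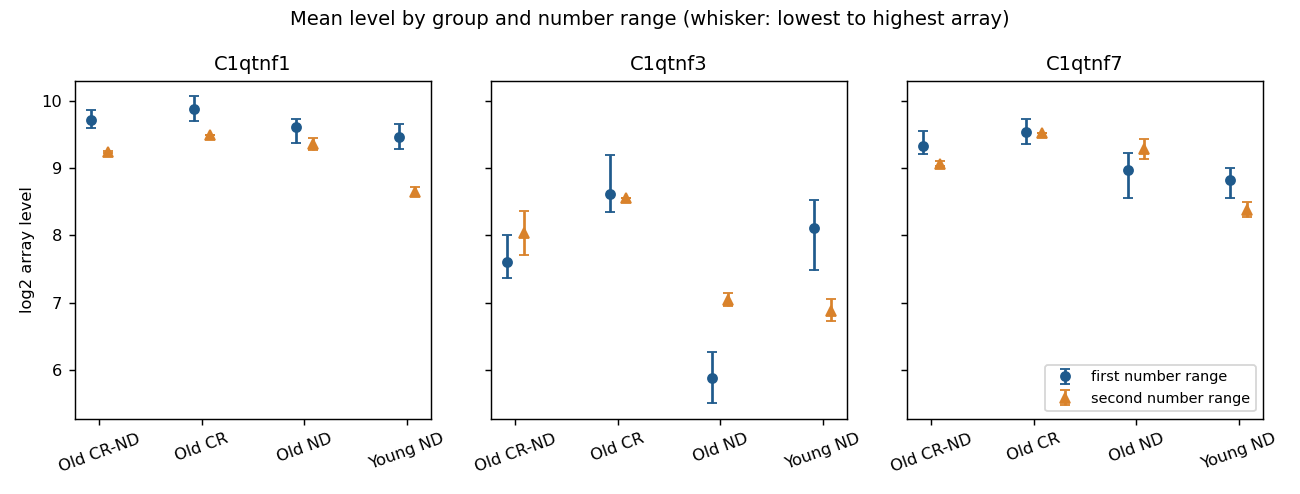
Mean log2 array level (vertical axis) of C1qtnf1, C1qtnf3 and C1qtnf7 by group, drawn apart for the first and the second number range; whiskers run over the lowest and highest array of the 1 to 4 arrays per point. C1qtnf3 in Old ND and Young ND sits at 5.87 and 8.11 in the first range and at 7.04 and 6.88 in the second, and C1qtnf1, on its brighter probe set, is lower in the second range in each group.

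C1qtnf7 showed a different order, with Young ND lowest. In Old CR-ND mice C1qtnf7 read 9.21, 9.23, 9.56, 9.11 and 9.03. In Old CR mice it read 9.56, 9.50, 9.36, 9.74 and 9.52. These 10 arrays all stood above every Young ND array. In Old ND mice the levels were 9.12, 9.23, 8.55, 9.44 and 9.14, with the third array well below the others. In Young ND mice they were 8.90, 8.55, 9.00, 8.27 and 8.49. The means were 9.23 ± 0.20 in Old CR-ND, 9.54 ± 0.14 in Old CR, 9.10 ± 0.33 in Old ND and 8.64 ± 0.30 in Young ND (SD, n = 5 each). Old CR was highest, and Old CR-ND and Old ND, next to each other in the order, overlapped.

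C1qtnf7 rose in Old CR against Young ND by 0.89 ± 0.15 (1.86-fold) and in Old CR-ND against Young ND by 0.59 ± 0.15. In Old CR against Young ND, 2 of the 3 measured genes passed, C1qtnf7 and C1qtnf1, beside 12.7% of all genes. C1qtnf3 had the largest difference of the 3 there, 0.99 ± 0.33 (1.98-fold), with overlapping arrays, and did not pass. It was 0.51 within the first number range and 1.67 within the second. In Old CR-ND against Young ND, C1qtnf7 alone passed, beside 7.04% of all genes. As in the other comparisons, nothing is read from these counts, because the genes were chosen on the same groups. In Old CR-ND against Young ND the C1qtnf7 call was lost without Old CR-ND replicate 3 (0.50), Young ND replicate 2 (0.56), 4 (0.49) or 5 (0.55), and within the first number range (0.52). Some markers of other cells also differed from Young ND in each old group. Beside Cd24a, described above, the endothelial marker Tek rose in each and averaged 5.78 in Old CR-ND, 5.98 in Old CR, 5.36 in Old ND and 4.35 in Young ND. The other 4 endothelial markers (Pecam1, Cdh5, Vwf and Kdr) did not pass, with Kdr at -0.91 in Old ND against Young ND. Of 5 macrophage markers, Csf1r fell in each and averaged 6.76 in Old CR-ND, 6.71 in Old CR, 6.48 in Old ND and 7.68 in Young ND, Cd68 rose in Old CR (1.03) and did not pass in Old CR-ND (0.90) or Old ND (0.94), and Adgre1, Lyz2 and Mrc1 did not pass. The mean of the endothelial list per array spanned 5.30 to 5.73 in Old CR-ND, 5.26 to 5.54 in Old CR, 4.89 to 5.55 in Old ND and 4.79 to 5.36 in Young ND, and that of the macrophage list 5.40 to 5.79 in Old CR-ND, 5.30 to 5.52 in Old CR, 5.32 to 5.72 in Old ND and 5.27 to 5.57 in Young ND. The means of the 5 markers sorted against spanned 4.41 to 4.70 in Old CR-ND, 4.33 to 4.49 in Old CR, 4.40 to 4.73 in Old ND and 4.72 to 4.98 in Young ND arrays, and the part of such cells in the differences of the members was not tested.

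C1qtnf1 had the lowest SD of the 3 over all arrays, 0.37 against 0.40 for C1qtnf7, while its range of 1.49 was about that of C1qtnf7 (1.47). Its SD still exceeded that of 93.0% of all genes. In Old CR-ND mice C1qtnf1 read 9.69, 9.60, 9.87, 9.26 and 9.22. In Old CR mice it read 9.83, 10.07, 9.90, 9.71 and 9.50. The lowest values in both groups came from the second number range. In Old ND mice it read 9.74, 9.38, 9.73, 9.45 and 9.27. In Young ND mice it read 9.66, 9.46, 9.29, 8.72 and 8.58. The 2 lowest Young ND arrays, both of the second range, lay apart from all other arrays, and the other 3 lay among the old groups. The means were 9.53 ± 0.28 in Old CR-ND, 9.80 ± 0.21 in Old CR, 9.51 ± 0.21 in Old ND and 9.14 ± 0.47 in Young ND (SD, n = 5 each), so Old CR was highest, Old CR-ND and Old ND lay side by side within their spread, and Young ND was lowest.

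C1qtnf1 rose by 0.66 ± 0.18 in Old CR against Young ND (1.58-fold), with overlapping arrays. The call was lost without Old CR replicate 2 (0.59), Young ND replicate 4 (0.55) or Young ND replicate 5 (0.52), and within the first number range (0.41). In Old CR-ND against Young ND, C1qtnf1 differed by 0.39 ± 0.18 and did not pass. The number range, which the choice of genes did not use, was tested with the groups held. C1qtnf1, on its brighter probe set, was lower in the second range than in the first, with a difference of -0.49 ± 0.08 (limma, adjusted p = 0.000509). Of all genes, 17.2% passed, and the C1qtnf1 mean on this probe set was lower in the second range in each of the 4 groups. The same test gave 0.09 ± 0.25 for C1qtnf3 (adjusted p = 0.858, limma) and -0.11 ± 0.11 for C1qtnf7 (adjusted p = 0.582, limma), without a shift that runs the same way in each group.

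The other C1qtnf1 probe set gave narrower groups and the same order of old above young. Its means were 8.13 ± 0.16 in Old CR-ND, 8.19 ± 0.07 in Old CR, 8.12 ± 0.14 in Old ND and 7.78 ± 0.14 in Young ND (SD, n = 5 each). It differed by 0.35 ± 0.08 in Old CR-ND against Young ND, by 0.41 ± 0.08 in Old CR against Young ND and by 0.34 ± 0.08 in Old ND against Young ND. Among the old groups its differences were at most 0.07 in size, where the brighter probe set gave 0.29 ± 0.18 for Old CR against Old ND. On the other probe set the second-range arrays lay below those of the first in Old CR-ND and Young ND only. In Old ND they read 8.08 and 8.24, against 8.04, 7.96 and 8.28 in the first range, and in Old CR 8.21, against 8.07 to 8.26.

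C1qtnf5, whose mutations cause a late-onset retinal degeneration in humans, shares its probe set with Mfrp, which encodes a frizzled-related membrane protein, so its share of the signal cannot be told apart. The shared probe set read 8.47, 8.43, 8.07, 8.03 and 8.07 in Old CR-ND mice and 8.09, 7.93, 7.89, 7.83 and 7.95 in Old CR mice. It read 8.81, 8.08, 9.31, 8.37 and 8.32 in Old ND mice and 8.08, 7.91, 8.24, 7.59 and 7.56 in Young ND mice. The highest values were from Old ND, with 8.81 and 9.31 above every other array. Its difference was -0.64 ± 0.18 in Old CR against Old ND, -0.36 ± 0.18 in Old CR-ND against Old ND and 0.70 ± 0.18 in Old ND against Young ND, each opposite in sign to C1qtnf3 in the same comparison. The sign was also opposite in Old CR-ND against Old CR (0.28 ± 0.18). It was the same as that of C1qtnf3 in Old CR against Young ND (0.06 ± 0.18) and in Old CR-ND against Young ND (0.34 ± 0.18).

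The 3 measured genes did not vary as a unit. Over the 20 arrays Pearson's r was 0.66 between C1qtnf1 and C1qtnf7, 0.49 between C1qtnf3 and C1qtnf7 and 0.24 between C1qtnf1 and C1qtnf3. After group means were removed these became 0.31, 0.61 and 0.10. After the means of each group within each number range were removed they became -0.21, 0.47 and -0.43. The arrays share groups, number ranges and RNA amplification, and the values are given as a description.

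The genes most like each by r over the 20 arrays were taken from 8572 genes that reached the median level. For C1qtnf3 the nearest were Pcsk6, a proprotein convertase (r = 0.856), Srgap1 (0.849), Zfp536 (0.839), Nt5e, the ectonucleotidase CD73 (0.834), and Dpp4, the cell-surface peptidase CD26 (0.828). Pcsk6 averaged 8.75 in Old CR-ND, 9.04 in Old CR, 8.00 in Old ND and 8.54 in Young ND. Once the means of each group within each range were removed, the likeness to C1qtnf3 was 0.23 for Pcsk6 and 0.382 for Dpp4, so most of it lay in the group and range means. For C1qtnf7 the nearest were Kcnj8, a potassium channel subunit (0.918), Serpina3n, a protease inhibitor (0.917), and Penk, the enkephalin precursor (0.907), with 0.613, 0.696 and 0.751 left after that step. Kcnj8 averaged 7.31 in Old CR-ND, 8.01 in Old CR, 6.72 in Old ND and 5.69 in Young ND. For C1qtnf1 the nearest was Nid1, a basement membrane protein, at 0.929, with 0.708 left, followed by Dpysl2 (0.918) and Adamtsl4 (0.916).

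The wider C1q-domain family was read for comparison, 21 of 25 listed genes that were not part of the choice. Adipoq, which encodes adiponectin, read 3.42 in each old group and 3.43 in Young ND, with each group within 3.25 to 3.63. Of the 21 genes, 0 rose and 1 fell in Old CR against Old ND, 1 rose in Old CR-ND against Old CR, and 0 passed in Old CR-ND against Old ND (limma; 1 at an unadjusted p under 0.05). Of all 17097 genes, 2.39% passed in Old CR against Old ND, 0.333% in Old CR-ND against Old CR and 0.00585% in Old CR-ND against Old ND. The median difference of the 21 in Old CR against Old ND was -0.06, against 0.00 over all genes.

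The gene that passed in both of those comparisons was C1qtnf12, which encodes the secreted insulin-sensitising factor adipolin (CTRP12). C1qtnf12 read 7.18, 7.03, 6.73, 7.22 and 6.92 in Old CR-ND mice and 6.24, 6.23, 6.18, 6.49 and 6.58 in Old CR mice. It read 6.78, 6.48, 7.33, 7.08 and 7.02 in Old ND mice and 6.73, 6.40, 6.87, 6.95 and 6.99 in Young ND mice. Old CR was the low group, and every Old CR-ND array lay above every Old CR array. C1qtnf12 fell by 0.59 ± 0.14 in Old CR against Old ND (limma, adjusted p = 0.0294) and rose by 0.67 ± 0.14 in Old CR-ND against Old CR (limma, adjusted p = 0.0444). It also fell by 0.44 ± 0.14 in Old CR against Young ND (limma, adjusted p = 0.0441). In these comparisons C1qtnf1, C1qtnf3 and C1qtnf7 each had the opposite sign.

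The C1qtnf12 calls lay near the threshold, and each was lost on leaving out any of several single arrays. With any array left out, the adjusted p of Old CR against Old ND lay between 0.00912 and 0.0837, above the threshold without Old CR replicate 1, 2 or 3 or Old ND replicate 3, 4 or 5. That of Old CR-ND against Old CR lay between 0.0260 and 0.123 and passed only without Old CR-ND replicate 3 or Old CR replicate 5. That of Old CR against Young ND lay between 0.0153 and 0.113 and passed only without Old CR replicate 5 or Young ND replicate 2. Of the other 3 probe sets of C1qtnf12, 2 also read lower in Old CR than in Old ND (-0.42 and -0.29), and the third differed by -0.02.

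Of the other family genes, Col8a2, a chain of a network-forming collagen of the eye and vessel wall, was picked after its values were seen. It averaged 4.82 in Old CR and 6.48 in Old ND, a difference of -1.66 ± 0.46 that missed the threshold (limma, adjusted p = 0.0626). Emilin1, an elastic-fibre glycoprotein, fell by 0.41 ± 0.11 in Old CR against Young ND (limma, adjusted p = 0.0185), a call lost without Old CR replicate 3 or 5 or Young ND replicate 2 (adjusted p up to 0.0602, limma). Caprin2, an RNA-binding protein with a C1q domain, rose by 0.32 ± 0.09 in Old CR-ND, 0.39 ± 0.09 in Old CR and 0.30 ± 0.09 in Old ND, each against Young ND (limma, adjusted p = 0.0290, 0.00492 and 0.0297). With an array left out, the adjusted p of Caprin2 reached 0.0988 for Old CR-ND, lost without its replicates 2 and 3 and Young ND replicates 2, 4 and 5, and 0.0853 for Old ND, lost without its replicates 1, 3 and 5 and the same Young ND replicates (limma).

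**Figure D4:**
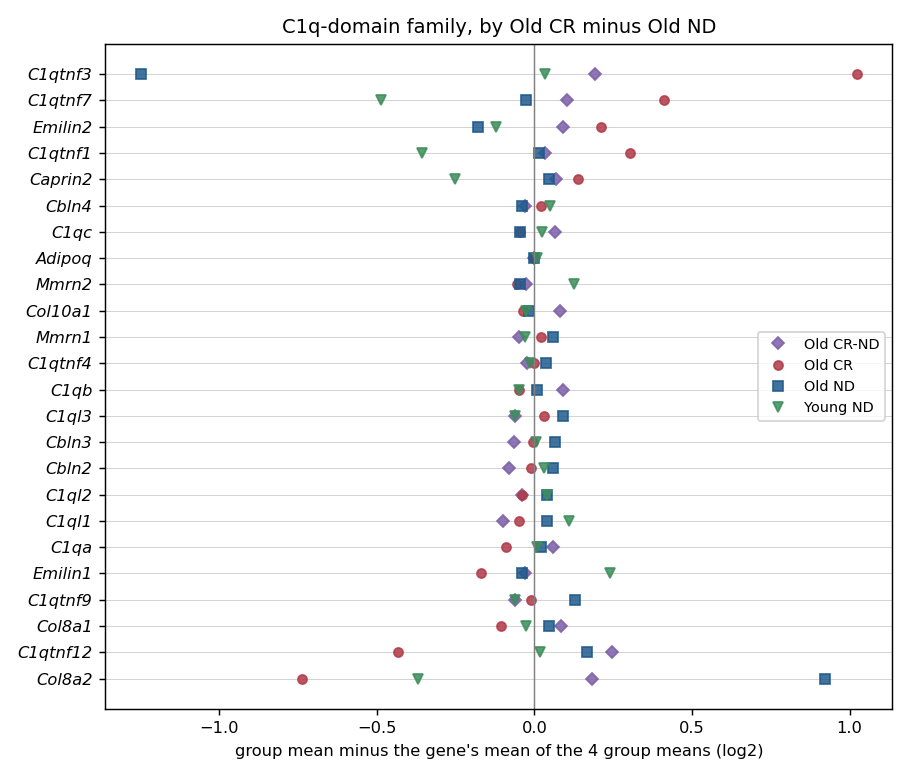
Group mean of 5 arrays minus the gene's own mean of the 4 group means (horizontal axis, log2) for 24 C1q-domain genes, ordered from top to bottom by Old CR minus Old ND. C1qtnf3 and C1qtnf7 stand at the Old CR-high end, with differences of 2.27 and 0.44, and C1qtnf12 and Col8a2 at the other end, with -0.59 and -1.66.

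Of 10 listed receptors and reported partners of adiponectin-like proteins, 7 were measured. None passed in Old CR against Old ND, in Old CR-ND against Old ND or in Old CR-ND against Old CR. Of all genes, 2.39%, 0.00585% and 0.333% passed there. At an unadjusted p under 0.05 in limma, 2, 1 and 3 of the 7 did. Adipor2, an adiponectin receptor, averaged 7.81 in Old CR and 7.44 in Old ND, a difference of 0.37 ± 0.11 (limma, adjusted p = 0.0819). Cdh13, the T-cadherin that binds adiponectin, averaged 9.87 in Old CR-ND and 9.45 in Old ND, a difference of 0.41 ± 0.14 (limma, adjusted p = 0.783). In Old ND against Young ND, where 10.9% of all genes were called, 2 of the 7 rose: Cfb, complement factor B, by 1.17 ± 0.14 (limma, adjusted p = 8.80e-06) and Scarb2, a lysosomal membrane protein, by 0.70 ± 0.10 (limma, adjusted p = 9.66e-05). Both also passed in Old CR-ND and in Old CR, each against Young ND.

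Of 12 listed genes of intracellular signalling, 10 were measured. Among them were subunits of the AMP-activated kinase, through which adiponectin-like proteins are reported to signal. None passed in Old CR against Old ND, Old CR-ND against Old ND or Old CR-ND against Old CR. Of all genes, 2.39%, 0.00585% and 0.333% passed there. At an unadjusted p under 0.05 in limma, 3, 0 and 1 of the 10 did. In Old ND against Young ND, Stk11, the upstream kinase LKB1, rose by 0.56 ± 0.12 (limma, adjusted p = 0.00423, and 0.159 with its probe sets averaged) and Prkag2, a regulatory subunit, fell by 0.59 ± 0.13 (limma, adjusted p = 0.00565). Prkab2, another regulatory subunit, fell by 0.74 ± 0.16 in Old CR against Young ND (limma, adjusted p = 0.00368).

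Enzymes and chaperones that process collagens and collagen-like tails formed the last list, 14 measured of 15. In Old ND against Young ND, 7 fell and 0 rose (10.9% of all genes were called, 1109 lower and 761 higher), with a list median of -0.28 against 0.00 over all genes. P4ha2, a prolyl hydroxylase subunit, fell by 1.69 ± 0.14 (limma, adjusted p = 1.06e-07), Plod1, a lysyl hydroxylase, by 1.45 ± 0.25 (limma, adjusted p = 0.000481), Serpinh1, the collagen chaperone HSP47, by 0.79 ± 0.08 (limma, adjusted p = 1.80e-06), and Erp44, which retains adiponectin in the secretory pathway, by 0.44 ± 0.09 (limma, adjusted p = 0.00231). The collagen genes Col1a1 and Col3a1 differed by -0.48 ± 0.08 and -0.27 ± 0.07 (limma, adjusted p = 0.000264 and 0.00808). Col1a2 differed by -0.24 and did not pass, and how the list relates to these genes was not tested. None of the 14 passed in Old CR against Old ND, Old CR-ND against Old ND or Old CR-ND against Old CR. Of all genes, 2.39%, 0.00585% and 0.333% passed there. At an unadjusted p under 0.05 in limma, 2, 3 and 2 of the 14 did. In Old CR against Young ND, with 12.7% of all genes called, 5 fell and 1 rose, Gstk1, whose product promotes adiponectin multimer assembly (0.65 ± 0.11, limma, adjusted p = 0.000463), and in Old CR-ND against Young ND, with 7.04% called, 5 fell.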

How the data were processed

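Expression was measured on 20 Affymetrix arrays, 5 per group. The authors deposited log2 values for 45141 probe sets, and per the submitters' processing notes these were made with RMA and affy (versions not given in the sources used here). Of the probe sets, 28898 name 1 gene, 551 several and 15692 none in the platform annotation, whose symbols were updated through gene identifiers. The probe set brightest on average stood for each of 17097 genes. Array medians lay between 5.27 and 5.34, no pair of arrays was identical. Precision is limited by the 5 arrays per group. Groups were compared in 6 contrasts (limma 3.58.1, R 4.3.3, a mean for each group, no covariate), with Benjamini-Hochberg adjustment over all genes at 0.05. The fit was tested on simulated data with known changes. The genes and lists were chosen with earlier results of these data known. Named genes are the members and, per related list and comparison, at most 4 of those called (at most 2 where no gene was called), taken by lowest adjusted p, with Adipoq added as the family's best-known hormone. Replicate numbers follow accession order and pair nothing.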

Additional observations from a re-analysis of the deposited data

Results flagged for a closer look

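In 108 group-by-gene sets of 5 arrays, covering the members and the related genes in the text, 6 held an array that stood apart from the others by Dixon's criterion. Chance flags about 1 in 20 such sets, which gives 5.4. C1qtnf3 in Old CR replicate 4 read 9.19, with the next array at 8.55. Without it the difference of Old CR against Old ND was 2.12. Adipor2 in Old ND replicate 2 read 7.09, with the next at 7.49, and Prkag2 in the same array read 6.91, with the next at 7.36. C1qtnf9 in Old CR-ND replicate 4 read 3.49, with the next at 3.76. Emilin1 in Old CR-ND replicate 3 read 6.78, with the next at 7.01. Prkab1 in Young ND replicate 2 read 7.39, with the next at 6.95.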

How the results depend on the processing

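Each comparison was recomputed under 22 other settings and 2 other thresholds. Fits over all probe sets and the test between the number ranges were run beside these. Both, and the keratinocyte covariate among the 22, were chosen after seeing the data. No paired analysis was possible because the labels carry no replicate numbers, and another background correction was not run because the values start after RMA. Among the measured members, the 1 past the threshold in Old ND against Young ND became 2 with quantile normalization repeated, with genes above the lower quartile or the median kept, within the second number range or at a threshold of 0.1, 3 with the range as a block, 0 with only the 2 groups fitted or at 0.01, and 1 to 2 with an array left out. C1qtnf3 turned from -1.28 to 0.16 there within the second range. In Old CR against Old ND the 1 became 0 within the second range. In Old CR-ND against Old ND the 0 became 1 within the first. In Old CR against Young ND the 2 became 3 with the range as a block or genes above the lower quartile or median kept. They became 1 within the first range or at 0.01, and 1 to 3 with an array left out. In Old CR-ND against Young ND the 1 became 2 with the range as a block, 3 within the second range, 0 within the first or at 0.01, and 0 to 1 with an array left out. Among related genes, the 1 in Old CR against Old ND became 2 above the median, with probe sets averaged or with a robust trend, 3 above the lower quartile, 4 with array weights, with the range as a block or at 0.1, 5 within the first range, 0 within the second range, with only 2 groups or at 0.01, and 0 to 3 with an array left out. The 1 in Old CR-ND against Old CR became 0 with arrays centred on their medians, with probe sets averaged, within either range, with the keratinocyte covariate or at 0.01, and 0 to 1 with an array left out. Related counts in the second range were 7 of a main 12 in Old ND against Young ND, 6 of 14 in Old CR against Young ND and 6 of 10 in Old CR-ND against Young ND, the last also 6 in the first range and at 0.01. With an array left out these 3 were 10 to 15, 11 to 14 and 7 to 10. Within the second range Adipor2 turned to -0.03 (0.37 otherwise) and Scarb2 to 0.06 (-0.31 otherwise) in Old CR against Old ND, Lamp1 to 0.00 (0.12) in Old CR-ND against Old ND, and Adipor2 to 0.00 (-0.32) in Old CR-ND against Old CR, none of them past the threshold. The second range held 1 or 2 arrays per group, and fewer samples alone widen its error. The cause of the other changes was not tested.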
